A study of Mus musculus with 21 samples.

Results

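The comparison described here set thyroids of mice given a vector for thyroid-stimulating hormone (TSH, thyrotropin) under thiamazole against thyroids of mice given an empty vector under the same drug, both at 4 weeks. It holds 6 of the 21 libraries of the study, 3 per group, chosen by their labels. All animals were C57BL/6J mice. The TSH-MMI group carried the vectors pLIVE-TSHB and pLIVE-CGA, which encode the beta and alpha chains of TSH, and received thiamazole, also called methimazole (MMI). The Empty-MMI group carried pLIVE-Empty and received MMI as well, so the drug was present on both sides and the difference is that of the vector. The other groups at 4 weeks, TSH and Empty, carried the same vectors without the drug. They were fitted together with the compared groups, so they enter the filter on low counts, the scaling and the estimate of spread. Their levels are used only where the vector's effect with and without MMI is compared. pLIVE is a plasmid made for expression in the liver, and no label mentions removal of the pituitary. The labels give all groups, controls included, a further treatment entry for induced hyperthyroidism. They give neither the dose of MMI nor the age or sex of the animals, and do not say that each library came from 1 animal. The p-values therefore rest on the spread among the libraries, which may be technical.

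TSH binds its receptor on thyroid follicular cells and acts mainly through Gs and cyclic AMP. It drives iodide uptake, the making and resorption of thyroglobulin, and growth of the gland. MMI blocks the iodination of thyroglobulin. In a mouse given MMI alone, falling thyroid hormone releases the pituitary from inhibition, so its own TSH rises. The hormone levels of the animals are not analysed here.

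RNA was sequenced from stranded mRNA libraries of thyroid tissue. The 6 libraries held 32244842 to 48884757 counts each over 45777 genes, of which 17355 passed the filter on low counts and were tested. Values are counts scaled to library size and written as CPM, with TMM normalisation, and log2FC is the fitted log2 fold change of TSH-MMI over Empty-MMI with its standard error (SE), n = 3 libraries per group. Genes were called at an adjusted p under 0.05 (edgeR's quasi-likelihood test, Benjamini-Hochberg over all genes tested). The tissue carried its label: Tg, which encodes thyroglobulin, took 24.4%, 27.1% and 20.9% of all counts in the Empty-MMI libraries and 18.3%, 20.1% and 24.9% in the TSH-MMI libraries. No library of the 12 taken at 4 weeks had a count for Tshb or Cga, the mouse genes for the hormone's chains, and a count of 0 allows up to 3 counts per library, for counting error only. They therefore gave no check of which animals carried the vector. 18S ribosomal RNA took 1.02% to 1.49% of counts in Empty-MMI and 0.519% to 1.1% in TSH-MMI, and mitochondrial genes took 6.82% to 8.94% and 7.25% to 7.66%.

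More genes were higher than lower with the TSH vector. Under MMI, 526 genes were higher and 210 lower in TSH-MMI, or 736 of 17355 genes tested (4.24%, with 3.03% higher and 1.21% lower). Of these, 138 rose and 65 fell at least 2-fold. The libraries of the groups did not overlap for 731 of the 736 called genes, and for 23.6% of all genes tested. The median log2FC over all genes tested was -0.01. The balance of directions differed between fits. With limma's trend method on log2(FPKM + 1), 761 genes were called higher and 111 lower. Of its calls 87.3% were higher, against 71.5% by edgeR. Unit, test and scaling changed together there, and its median log2FC over all genes tested was 0.06. The counts also rested on single libraries. They were 259 higher and 88 lower without Empty-MMI replicate 1, 235 and 72 without Empty-MMI replicate 2, and 199 and 56 without TSH-MMI replicate 1. Without TSH-MMI replicate 2, they were 394 higher and 114 lower.

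**Figure D1:**
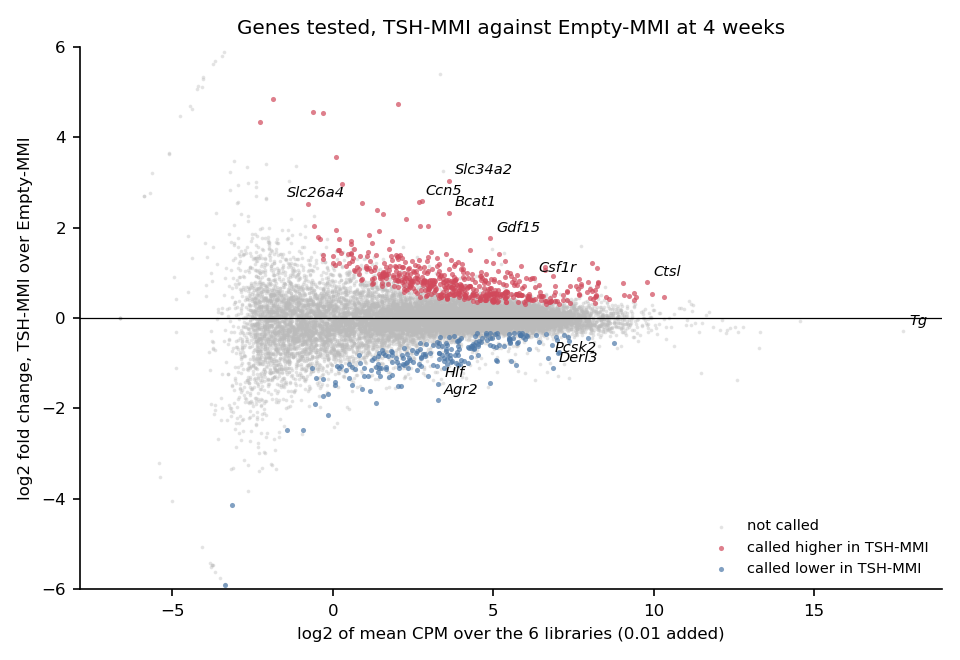
Fitted log2 fold change of TSH-MMI over Empty-MMI (vertical axis) against the log2 of the mean CPM over the 6 libraries (horizontal axis), 1 point per gene tested, with 526 genes called higher in red and 210 called lower in blue. The 29 genes beyond a log2 fold change of 6 are not drawn. Slc34a2 stands highest among the labelled genes, Agr2 lowest, and Tg, the gene with the highest level, lies near 0.

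Among the called genes of at least 5 CPM that the naming rule below takes, Slc34a2 had the highest change (gene identifier 20531, chromosome 5, 53049353 to 53071664). It encodes a sodium-dependent phosphate transporter of epithelia. Its CPM was 2.66, 1.45 and 3.83 in Empty-MMI and 27.5, 15.9 and 21.7 in TSH-MMI. Each TSH-MMI library lay above each Empty-MMI library, and the gene rose 8.25-fold (log2FC 3.04, SE 0.39, edgeR adjusted p = 0.00273). Ccn5, a secreted matricellular protein, had 1.59, 1.34 and 2.56 CPM in Empty-MMI and 13.9, 10.7 and 8.16 in TSH-MMI. It rose 5.96-fold (log2FC 2.58, SE 0.25, edgeR adjusted p = 0.000244), with no overlap. Bcat1, the cytosolic enzyme that transaminates branched-chain amino acids, had 4.25, 1.84 and 6.04 CPM in Empty-MMI and 26.4, 18.2 and 16.2 in TSH-MMI. It rose 5.04-fold (log2FC 2.33, SE 0.38, edgeR adjusted p = 0.00754). Sphk1, which makes the lipid signal sphingosine 1-phosphate, rose 4.12-fold, from 3.44, 1.57 and 2.66 to 11.9, 11.6 and 8.02 CPM (log2FC 2.04, SE 0.27, edgeR adjusted p = 0.00161).

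Gdf15, a stress-induced cytokine, had 11.5, 9.35 and 19.7 CPM in Empty-MMI and 58.4, 46.5 and 34.1 in TSH-MMI (log2FC 1.78, SE 0.29, edgeR adjusted p = 0.00754). Adm2, a peptide of the adrenomedullin family, had 12.2, 8.59 and 9.26 CPM against 33, 35.1 and 17.4 (log2FC 1.51, SE 0.23, edgeR adjusted p = 0.00438). Neither gene's groups overlapped. Slc1a1, a transporter of glutamate and cysteine, rose from 19.8, 16.5 and 22.7 CPM to 66.3, 39 and 51.1 (log2FC 1.41, SE 0.17, edgeR adjusted p = 0.00092). Nox4, an NADPH oxidase that makes hydrogen peroxide, rose from 3.55, 3.48 and 2.8 CPM to 8.75, 6.2 and 8.67 (log2FC 1.27, SE 0.21, edgeR adjusted p = 0.00491). The remaining genes of the 15 highest were Tmem100, with a log2FC of 1.41, Lgi2 with 1.34, Klrg2 with 1.33, Cnmd, the cartilage protein chondromodulin, with 1.29, and Hs3st3a1, a heparan sulfate sulfotransferase, with 1.28. Of the 15 highest, 11 passed the threshold at every alternative setting. The exceptions were Areg and Dio2, below, Lgi2 (adjusted p = 0.0603 without Empty-MMI replicate 2) and Cnmd (adjusted p = 0.0539 with only the compared groups in the fit, 0.0681 without Empty-MMI replicate 1 and 0.0734 without TSH-MMI replicate 1).

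**Figure D2:**
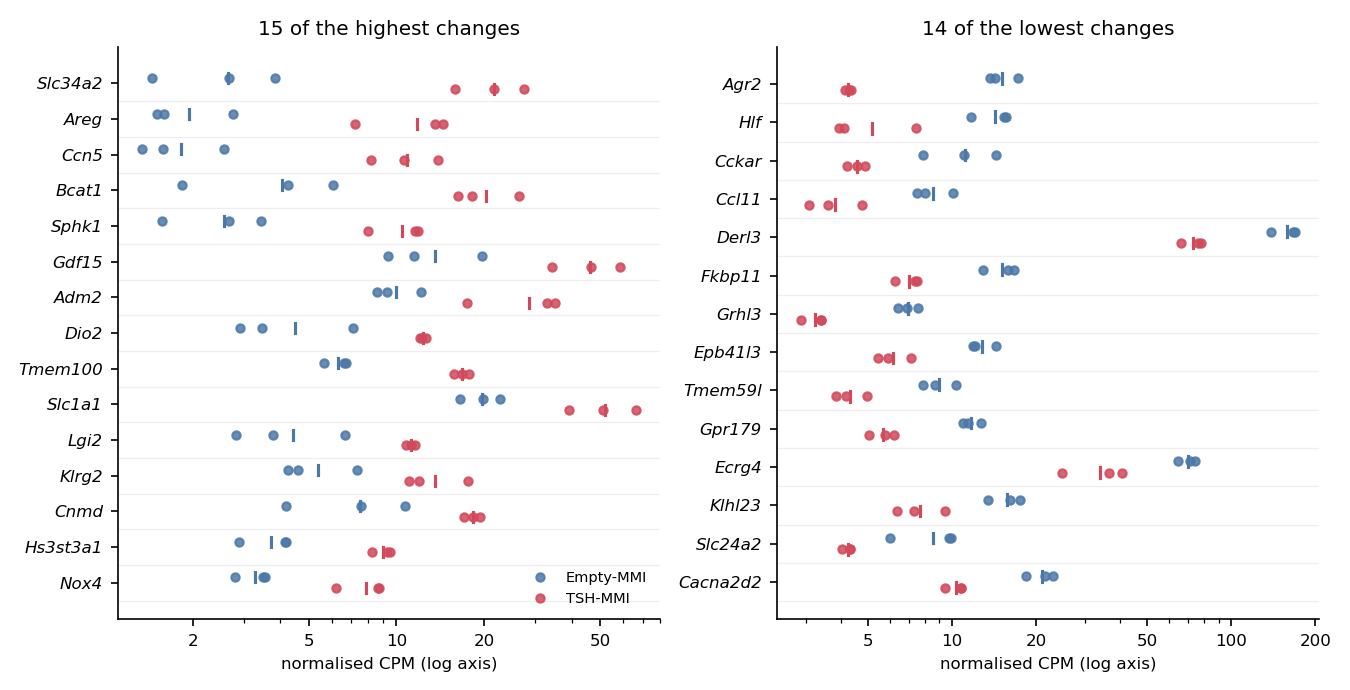
Normalised CPM per library (horizontal, log axis) of 15 genes with the highest and 14 with the lowest log2 fold changes, 3 Empty-MMI libraries in blue and 3 TSH-MMI libraries in red, with bars at the group means. The groups do not overlap for any of the 29 genes drawn, which the naming rule required.

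Areg encodes amphiregulin, a ligand of the EGF receptor, and Dio2 the deiodinase that converts thyroxine to the more active triiodothyronine. Both are known as genes that cyclic AMP can induce, so their promoters were searched for the full cyclic AMP response element (CRE, TGACGTCA, the same on both strands). The search window held the 250 bases before and 50 after the start site in RefSeq on GRCm38.p6, and the 250 bases before it are shown, 5′ to 3′, with the match in capitals. The windows shown are chr5:91139349-91139598 on the plus strand for Areg, with the match beginning at position -61 from the start site, and chr12:90739039-90739288 on the minus strand for Dio2, with the match at -95.
Areg: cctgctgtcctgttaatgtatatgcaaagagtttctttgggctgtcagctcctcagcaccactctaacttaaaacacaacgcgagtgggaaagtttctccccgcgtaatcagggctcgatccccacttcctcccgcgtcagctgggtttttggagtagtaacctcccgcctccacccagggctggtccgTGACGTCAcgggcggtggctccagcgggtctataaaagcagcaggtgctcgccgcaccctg
Dio2: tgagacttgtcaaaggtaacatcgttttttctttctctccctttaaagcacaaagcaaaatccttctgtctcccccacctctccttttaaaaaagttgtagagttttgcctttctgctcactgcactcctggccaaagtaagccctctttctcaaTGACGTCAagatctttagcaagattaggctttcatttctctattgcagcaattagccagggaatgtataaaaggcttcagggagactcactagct
The letters were found in 3.27% of the 12849 tested genes that have a window, in 3 of the 13 highest genes that have one (Areg, Dio2 and Hs3st3a1) and in 2 of the 12 lowest that have one (Hlf and Tmem59l). In the list of cyclic AMP response genes they were in 1 of 19 tested genes with a window (5.26%), and that gene is Areg itself. A match describes the window and is not evidence of binding. Areg had 1.5, 1.59 and 2.75 CPM in Empty-MMI and 14.5, 13.5 and 7.21 in TSH-MMI, a 6.01-fold rise (log2FC 2.59, SE 0.6, edgeR adjusted p = 0.0462). Its groups did not overlap, but the call ended at 9 of 15 alternative settings, including each that left out 1 library (adjusted p from 0.0505 to 0.173). Dio2 had 3.47, 2.92 and 7.09 CPM in Empty-MMI and 12.1, 12.2 and 12.7 in TSH-MMI (log2FC 1.46, SE 0.27, edgeR adjusted p = 0.0109). Its call ended without Empty-MMI replicate 1 (adjusted p = 0.0538).

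Among the called genes of at least 5 CPM that fell, taken by the same rule, Agr2 fell most (gene identifier 23795, chromosome 12, 35992925 to 36004081). Agr2 is a protein of the endoplasmic reticulum (ER) that is needed for mucin production. It had 13.7, 17.2 and 14.2 CPM in Empty-MMI and 4.35, 4.28 and 4.13 in TSH-MMI (log2FC -1.82, SE 0.17, edgeR adjusted p = 0.000244). The TSH-MMI libraries lay close together and far below the others. Cckar, a receptor for cholecystokinin, had 14.4, 11.1 and 7.87 CPM against 4.21, 4.56 and 4.87 (log2FC -1.29, SE 0.22, edgeR adjusted p = 0.00533). Ccl11, the eosinophil chemokine eotaxin, had 7.98, 7.51 and 10.1 CPM against 3.59, 3.06 and 4.74 (log2FC -1.16, SE 0.2, edgeR adjusted p = 0.00491). Grhl3, an epithelial transcription factor, had 6.88, 7.57 and 6.39 CPM against 2.88, 3.4 and 3.4 (log2FC -1.11, SE 0.15, edgeR adjusted p = 0.00187). Ecrg4, a secreted peptide precursor, was among the better expressed of these genes, with 74.3, 71.2 and 64.1 CPM against 24.7, 36.5 and 40.4 (log2FC -1.04, SE 0.18, edgeR adjusted p = 0.0068). Hlf, also among them, is given with the clock genes. Epb41l3 and Tmem59l fell with log2FC -1.05 each, Gpr179 with -1.05, Klhl23 with -1.02, and Slc24a2, a calcium exchanger, and Cacna2d2, a calcium channel subunit, with -1.02 each. Of the 14 lowest genes described here, 12 passed at every alternative setting. Tmem59l was no longer called without Empty-MMI replicate 1 (adjusted p = 0.0538) or TSH-MMI replicate 1 (0.0734), nor was Slc24a2 at 8 settings (adjusted p up to 0.154).

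Derl3 and Fkbp11 are ER proteins, the first of them a part of the machinery that returns misfolded proteins to the cytosol. Derl3 had 166, 139 and 168 CPM in Empty-MMI and 76, 65.8 and 77.5 in TSH-MMI, a 2.16-fold lower level (log2FC -1.11, SE 0.13, edgeR adjusted p = 0.000784). Fkbp11, a prolyl isomerase, had 15.9, 12.9 and 16.7 CPM against 7.51, 7.34 and 6.25 (log2FC -1.11, SE 0.14, edgeR adjusted p = 0.000969). Neither gene's groups overlapped. The Derl3 promoter is shown because its window holds the ER stress response element (ERSE, CCAAT and CCACG with 9 bases between them, searched on both strands), here on the opposite strand and in capitals. The window is chr10:75893148-75893397, plus strand, 5′ to 3′, from RefSeq on GRCm38.p6, and the match begins at position -156.
Derl3: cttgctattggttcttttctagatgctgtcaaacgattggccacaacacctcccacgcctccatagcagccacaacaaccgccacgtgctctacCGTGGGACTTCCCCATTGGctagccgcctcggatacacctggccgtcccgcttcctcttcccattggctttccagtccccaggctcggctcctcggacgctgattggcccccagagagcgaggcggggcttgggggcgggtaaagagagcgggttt
This element was found in 0.171% of the tested genes with a window, in 7 of the 17 tested ER chaperone genes that have one and in 1 of the 12 lowest genes, Derl3. Of 19 tested ER chaperone genes 0 were called (against 1.21% lower over all genes tested), 18 had a negative log2FC, and the median was -0.2. At an unadjusted p under 0.05, 7 were lower and 0 higher, against 1293 lower and 1760 higher of the 17355 genes tested. Creld2 had the smallest p of the list, with 413, 289 and 449 CPM in Empty-MMI and 316, 233 and 200 in TSH-MMI (log2FC -0.62, SE 0.17, edgeR adjusted p = 0.0677). Its groups overlapped. DESeq2 called 3 of the 19 lower (Creld2, Dnajc3 and Sdf2l1), and edgeR called 1 without Empty-MMI replicate 2 or TSH-MMI replicate 1.

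Of 17 tested genes of thyroid hormone synthesis 3 rose (Slc26a4, Dio2 and Ano1) and 0 fell (17.6%, against 3.03% higher and 1.21% lower of all genes tested), with a median log2FC of 0.09. Slc26a4 encodes pendrin, which exchanges anions across the apical side of follicular cells (gene identifier 23985, chromosome 12, 31519814 to 31560055). It was low, with 0.672, 0.372 and 0.585 CPM in Empty-MMI and 4.49, 3.06 and 1.97 in TSH-MMI. The groups did not overlap, with a 5.85-fold rise (log2FC 2.55, SE 0.37, edgeR adjusted p = 0.0021). Ano1, a calcium-activated anion channel of the same membrane, had 21, 25.1 and 20.4 CPM against 32, 32.7 and 35.7 (log2FC 0.59, SE 0.11, edgeR adjusted p = 0.0105). Without Empty-MMI replicate 1, the list's count was 1, since Ano1 (adjusted p = 0.0522) and Dio2 were no longer called.

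Tg itself had 255300, 274500 and 202400 CPM in Empty-MMI and 166400, 189800 and 245700 in TSH-MMI. The groups overlapped, and the log2FC of -0.28 (SE 0.18) did not pass (edgeR adjusted p = 0.466). Slc5a5, the sodium iodide symporter, had 250, 248 and 208 CPM against 228, 235 and 134 (log2FC -0.24, SE 0.31, edgeR adjusted p = 0.762). For both genes TSH-MMI replicate 3 stood apart from replicates 1 and 2, with more Tg and less Slc5a5. Of the genes for the peroxide-generating oxidases and their maturation factors, Duox2 had a log2FC of -0.38, Duox1 of 0.14, Duoxa2 of 0.06 and Duoxa1 of 0.03. Among transporters and channels, Slc16a10 had -0.07, the iodide transporter Slc26a7 had 0.09 and the potassium channel Kcnq1 had 0.33. Iyd, which recovers iodide from iodotyrosines, had 0.18. Slc5a8, a monocarboxylate transporter of the apical membrane, had 134, 139 and 112 CPM against 90.1, 96.1 and 106, without overlap, and a log2FC of -0.4 (SE 0.14, edgeR adjusted p = 0.133). Dio1, the other activating deiodinase, had 464, 467 and 426 CPM against 612, 594 and 484, also without overlap (log2FC 0.32, SE 0.1, edgeR adjusted p = 0.113). DESeq2 called it higher (adjusted p = 0.0357).

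None of the 9 tested genes of the receptor and the thyroid transcription factors was called by edgeR in the fit of 12 libraries, and their median log2FC was -0.13. At an unadjusted p under 0.05, 2 were lower and 0 higher, and DESeq2 and edgeR on the 6 compared libraries alone each called 1 lower. Tshr, the TSH receptor, had 141, 160 and 94.5 CPM in Empty-MMI and 129, 102 and 124 in TSH-MMI (log2FC -0.15, SE 0.19, edgeR adjusted p = 0.743). Nkx2-1 had 163, 161 and 164 CPM against 161, 187 and 179, and the log2FC of Pax8 was -0.02, of Foxe1 0.2 and of Hhex 0.22. These factors set the follicular cell's program. Glis3, which is needed for the gland's response to TSH, had -0.18, Creb3l1 had -0.56 and Crebrf -0.13. Gnas, whose main product is the Gs alpha subunit that couples the receptor to cyclic AMP, had 1671, 1842 and 2270 CPM against 1205, 1225 and 1344. Its groups did not overlap, but it did not pass (log2FC -0.62, SE 0.23, edgeR adjusted p = 0.168). It is the gene called by DESeq2 (adjusted p = 0.0429) and by edgeR on the 6 compared libraries alone (adjusted p = 0.0294), in a range of 0.0294 to 0.412 over all alternatives, and overlapping transcripts at its locus make its count uncertain. Over both lists, the 23 of 26 genes not called had log2FC from -0.62 to 0.33.

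Ligands and early genes downstream of growth signals rose in part. In the list of EGF and IGF family genes 4 of 19 rose and 0 fell (median log2FC 0.17), against 3.03% and 1.21% of all genes tested. Ereg, the EGF receptor ligand epiregulin, had 0.134, 0.29 and 0.341 CPM in Empty-MMI and 1.1, 1.16 and 0.936 in TSH-MMI (log2FC 2.03, SE 0.4, edgeR adjusted p = 0.0113). Igfbp7, an IGF-binding protein of vessel walls, had 144, 144 and 147 CPM against 245, 250 and 214 (log2FC 0.7, SE 0.11, edgeR adjusted p = 0.00317). Igfbp2, another IGF-binding protein, had 0 counts in each Empty-MMI library and 11, 9 and 26 in TSH-MMI, at least 5.07-fold higher against a floor of 3 counts per library (edgeR adjusted p = 0.0076). It passed the filter on low counts through libraries with the TSH vector, so its p-value and its place in the list's count are not independent of its rise. Without the drug Igfbp2 had 0.183, 0.082 and 0.199 CPM in Empty, and its log2FC of 1.12 did not pass (edgeR adjusted p = 0.276). Areg was the other member that rose. The IGF and EGF receptors themselves were not called.

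Of 24 cyclic AMP response and immediate early genes 4 rose and 0 fell: Ier3, Jund, Fosl2 and Areg. This was 16.7%, against 3.03% higher and 1.21% lower of all genes tested, with a median log2FC of 0.16. Ier3, an early response gene of stress and growth signals, had 4.06, 3.74 and 4 CPM against 8.7, 9.26 and 6.39 (log2FC 1.04, SE 0.21, edgeR adjusted p = 0.0148). Jund and Fosl2 are subunits of the AP-1 transcription factor, with log2FC 0.61 and 0.4. This count fell to 0 without Empty-MMI replicate 1, Empty-MMI replicate 2, TSH-MMI replicate 1 or TSH-MMI replicate 2. Prostaglandin synthesis genes included 3 of 16 that rose and 0 that fell (18.8% higher, median log2FC 0.4). Ptgs1, the cyclooxygenase COX-1, had 15.5, 17.2 and 15.4 CPM against 50.6, 30.5 and 34.5 (log2FC 1.26, SE 0.17, edgeR adjusted p = 0.00161). Ptgs2, the inducible COX-2, had 0 counts in each Empty-MMI library and 30, 15 and 13 in TSH-MMI, at least 7.12-fold higher against the same floor (edgeR adjusted p = 0.0282). Among the compared libraries, only those of TSH-MMI could carry it past the filter on low counts. Its p-value and its place in the list's count have the same limit as those of Igfbp2. Hpgd, which breaks prostaglandins down, had a log2FC of 0.81 (SE 0.2, edgeR adjusted p = 0.0369). Without Empty-MMI replicate 1, Empty-MMI replicate 3 or TSH-MMI replicate 1, 1 of the 3 was called.

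Macrophage markers rose as a group. Of 16 tested markers 14 rose and 0 fell (87.5%, against 3.03% of all genes tested), and the median log2FC was 0.87. Csf1r, the receptor for the macrophage growth factor, had 52.1, 54.1 and 50.1 CPM in Empty-MMI and 100.1, 89.8 and 97.9 in TSH-MMI (log2FC 0.88, SE 0.09, edgeR adjusted p = 0.000478). Fcgr3, an Fc receptor, had 8.2, 8.15 and 8.78 CPM against 20.1, 17.4 and 18.7 (log2FC 1.16, SE 0.12, edgeR adjusted p = 0.000478). C1qb and C1qc, chains of complement C1q that macrophages make, had log2FC of 0.88 and 0.95. The groups did not overlap for any of these 4 genes. Of the 16, 15 had a positive log2FC. The summed level of the list was 401 to 513 CPM in Empty-MMI and 593 to 761 in TSH-MMI. In bulk tissue, more macrophages and more RNA per macrophage cannot be told apart. The count was 9 without Empty-MMI replicate 1 and 8 without TSH-MMI replicate 1, with 0 called lower at either.

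Of 10 MHC class II genes 8 rose (80%) and 0 fell, against 3.03% higher and 1.21% lower of all genes tested. The median log2FC was 0.6, and the summed level was 1391 to 1429 CPM in Empty-MMI and 2023 to 2196 in TSH-MMI. H2-Aa, a chain of the I-A molecule, had 198, 210 and 201 CPM against 303, 320 and 323 (log2FC 0.63, SE 0.11, edgeR adjusted p = 0.00621). H2-Eb1 and H2-DMb1 had log2FC of 0.65 and 0.52. Ciita, the transcriptional activator of these genes, had 5.86, 4.84 and 6.75 CPM against 12.3, 10.5 and 8.63 (log2FC 0.85, SE 0.16, edgeR adjusted p = 0.0105). The count was 4 without Empty-MMI replicate 1, and 5 without Empty-MMI replicate 2, Empty-MMI replicate 3, TSH-MMI replicate 1 or TSH-MMI replicate 2. In MHC class I and peptide loading 2 of 11 rose (18.2%), B2m (log2FC 0.48) and H2-D1 (0.4), and 0 fell. Without Empty-MMI replicate 2 or TSH-MMI replicate 1 neither was called, and without Empty-MMI replicate 1, Empty-MMI replicate 3 or TSH-MMI replicate 2, 1 of the list was. Of 15 complement genes 5 rose and 0 fell (33.3% higher, median log2FC 0.41). Among them were C4b with a log2FC of 0.92, C3ar1 with 0.78, Cd55 with 0.69 and Serping1 with 0.45. This count was 2 without Empty-MMI replicate 1 or TSH-MMI replicate 1, and 3 without TSH-MMI replicate 2 or TSH-MMI replicate 3. No T and NK cell marker was called of 14 tested (0 by edgeR or DESeq2, and 0 at an unadjusted p under 0.05), and their summed level was 7.7 to 11.5 CPM in Empty-MMI and 10.2 to 12.6 in TSH-MMI.

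Proteases of the lysosome, which release thyroid hormone from thyroglobulin in follicular cells and are also abundant in macrophages, rose in part. Of 24 lysosomal genes 6 rose and 0 fell (25%, against 3.03% higher of all genes tested, median log2FC 0.26). Ctsl, cathepsin L, had 685, 613 and 650 CPM in Empty-MMI and 1168, 1140 and 1078 in TSH-MMI (log2FC 0.8, SE 0.1, edgeR adjusted p = 0.00092). Ctss, a cathepsin of antigen-presenting cells, had 58.1, 57.4 and 73.8 CPM against 144, 114 and 135 (log2FC 1.06, SE 0.15, edgeR adjusted p = 0.0021). Ctsb, cathepsin B, had 1154, 984 and 1092 CPM against 1550, 1474 and 1471 (log2FC 0.48, SE 0.09, edgeR adjusted p = 0.00935). Tcirg1, a subunit of the proton pump, had a log2FC of 0.61. How far the macrophage markers, whose sums rose beside them, account for the lysosomal genes was not tested. Without Empty-MMI replicate 2, Empty-MMI replicate 3 or TSH-MMI replicate 1, 3 of the list were called.

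Interferon response genes rose as well. Of 25 tested genes 9 rose and 0 fell (36%, against 3.03% of all genes tested), and the median log2FC was 0.53. At an unadjusted p under 0.05, 18 were higher and 0 lower. Irf7, a transcription factor of the interferon response, had 6.02, 5.25 and 6.29 CPM in Empty-MMI and 10.8, 13.7 and 14.5 in TSH-MMI (log2FC 1.15, SE 0.18, edgeR adjusted p = 0.00315). Ifi44 had 4.87, 4.61 and 3.9 CPM against 9.88, 7.62 and 11.9 (log2FC 1.14, SE 0.17, edgeR adjusted p = 0.00266). Oasl2, of the family of oligoadenylate synthetases that sense double-stranded RNA, had a log2FC of 0.92. None of these groups overlapped. The count was 5 without Empty-MMI replicate 2.

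The promoters of Gbp3, an interferon-induced GTPase, and Oas1a, an oligoadenylate synthetase, are shown because each holds the interferon-stimulated response element (ISRE, here GAAA and GAAA with 2 bases between them, searched on both strands). The windows are chr3:142559794-142560043 on the plus strand for Gbp3 and chr5:120907526-120907775 on the minus strand for Oas1a, 5′ to 3′, from RefSeq on GRCm38.p6. Capitals mark 2 overlapping matches in each, which begin at positions -45 and -39 in Gbp3, on its opposite strand, and at -20 and -14 in Oas1a.
Gbp3: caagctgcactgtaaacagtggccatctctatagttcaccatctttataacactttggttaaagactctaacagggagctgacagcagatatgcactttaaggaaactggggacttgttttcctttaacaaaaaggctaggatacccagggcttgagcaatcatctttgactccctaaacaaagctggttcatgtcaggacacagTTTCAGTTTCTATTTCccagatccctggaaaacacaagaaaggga
Oas1a: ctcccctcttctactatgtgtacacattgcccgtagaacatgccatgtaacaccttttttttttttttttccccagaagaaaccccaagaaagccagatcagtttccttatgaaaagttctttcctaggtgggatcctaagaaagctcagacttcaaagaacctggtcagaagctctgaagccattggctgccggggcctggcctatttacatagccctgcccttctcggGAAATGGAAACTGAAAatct
The ISRE letters were found in 3.83% of tested genes with a window, and in 13 of the 19 tested interferon genes that have one. They were in 5 of the 8 that rose and in 8 of the 11 that were not called, so a match did not separate the genes that moved. Gbp3 had 8.25, 7.65 and 10.6 CPM in Empty-MMI and 17.1, 16.5 and 18.1 in TSH-MMI (log2FC 0.97, SE 0.14, edgeR adjusted p = 0.0021). Oas1a had 11.1, 10.1 and 15 CPM against 24.8, 27.2 and 19.9 (log2FC 0.99, SE 0.17, edgeR adjusted p = 0.0061). Neither overlapped.

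Endothelial markers rose by smaller steps. Of 16 tested markers 9 rose and 0 fell (56.2%, against 3.03% higher of all genes tested), all 16 had a positive log2FC, and the median was 0.37. Plvap, a protein of fenestrated capillaries such as those around thyroid follicles, had 228, 234 and 213 CPM in Empty-MMI and 342, 379 and 323 in TSH-MMI (log2FC 0.63, SE 0.09, edgeR adjusted p = 0.0021). Sox17, an endothelial transcription factor, had 3.04, 3.04 and 2.51 CPM against 5.84, 5.61 and 8.69 (log2FC 1.23, SE 0.18, edgeR adjusted p = 0.00252). Eng and Emcn had log2FC of 0.52 and 0.48. Summed, the markers came to 1185 to 1368 CPM in Empty-MMI and 1666 to 1742 in TSH-MMI, without overlap. The count was 5 without Empty-MMI replicate 2 or Empty-MMI replicate 3. Of 20 angiogenic signals 3 rose and 0 fell (15% higher, median log2FC 0.28). These were Aplnr, the apelin receptor of sprouting endothelium, with 12.6, 11.4 and 9.36 CPM against 20.5, 23.9 and 23 (log2FC 1.01, SE 0.11, edgeR adjusted p = 0.000656), Esm1, a tip cell marker (0.57), and Ramp3, a partner of adrenomedullin receptors (0.72). Smooth muscle and pericyte markers had 1 of 12 called, Rgs5 (log2FC 0.59), which was no longer called without Empty-MMI replicate 1, Empty-MMI replicate 3, TSH-MMI replicate 1 or TSH-MMI replicate 3.

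Genes of the extracellular matrix rose in part. Of 21 matrix and fibroblast genes 9 rose and 0 fell (42.9%, against 3.03% higher and 1.21% lower of all genes tested), with a median log2FC of 0.32. Lox, lysyl oxidase, which crosslinks collagen and elastin, had 9.73, 8.67 and 8.26 CPM in Empty-MMI and 22.5, 17.7 and 22.6 in TSH-MMI (log2FC 1.24, SE 0.12, edgeR adjusted p = 0.000244). The groups lay far apart for Fbn1, the microfibril protein fibrillin, too, with 38, 41.1 and 34.1 CPM against 63.1, 60.6 and 65.5 (log2FC 0.74, SE 0.13, edgeR adjusted p = 0.00684). Of the collagen chains, Col5a2 had a log2FC of 0.92, and Col3a1 had 202, 246 and 241 CPM against 499, 329 and 344 (log2FC 0.77, SE 0.15, edgeR adjusted p = 0.0104). In Col3a1, TSH-MMI replicate 1 stood above replicates 2 and 3. The count was 3 without Empty-MMI replicate 1 and 4 without Empty-MMI replicate 2 or TSH-MMI replicate 1. The other matrix lists had 10% (basement membrane), 15.8% (proteases and inhibitors) and 22.2% (cartilage) of their tested genes higher, beside the same 3.03%. Among 20 basement membrane genes 2 rose, Col4a1 (log2FC 0.46) and Agrn (0.36), and 0 fell. Without Empty-MMI replicate 2, Empty-MMI replicate 3 or TSH-MMI replicate 1 none of these was called, and without Empty-MMI replicate 1 or TSH-MMI replicate 2, 1 was. Among 19 matrix proteases and inhibitors 3 rose and 0 fell: among them Adamts2, which processes procollagen, with a log2FC of 0.64, and Mmp2, a gelatinase, with 0.51. Without TSH-MMI replicate 1, 0 of these were called, and without Empty-MMI replicate 1 or TSH-MMI replicate 2, 1 was. Of 9 cartilage genes Comp rose (log2FC 1.54), as did Cnmd, and Col9a1 fell (log2FC -2.16, from 1.85, 1.41 and 1.15 CPM to 0.198, 0.34 and 0.427). Without Empty-MMI replicate 1 or TSH-MMI replicate 1, Cnmd was no longer called and Comp was.

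**Figure D3:**
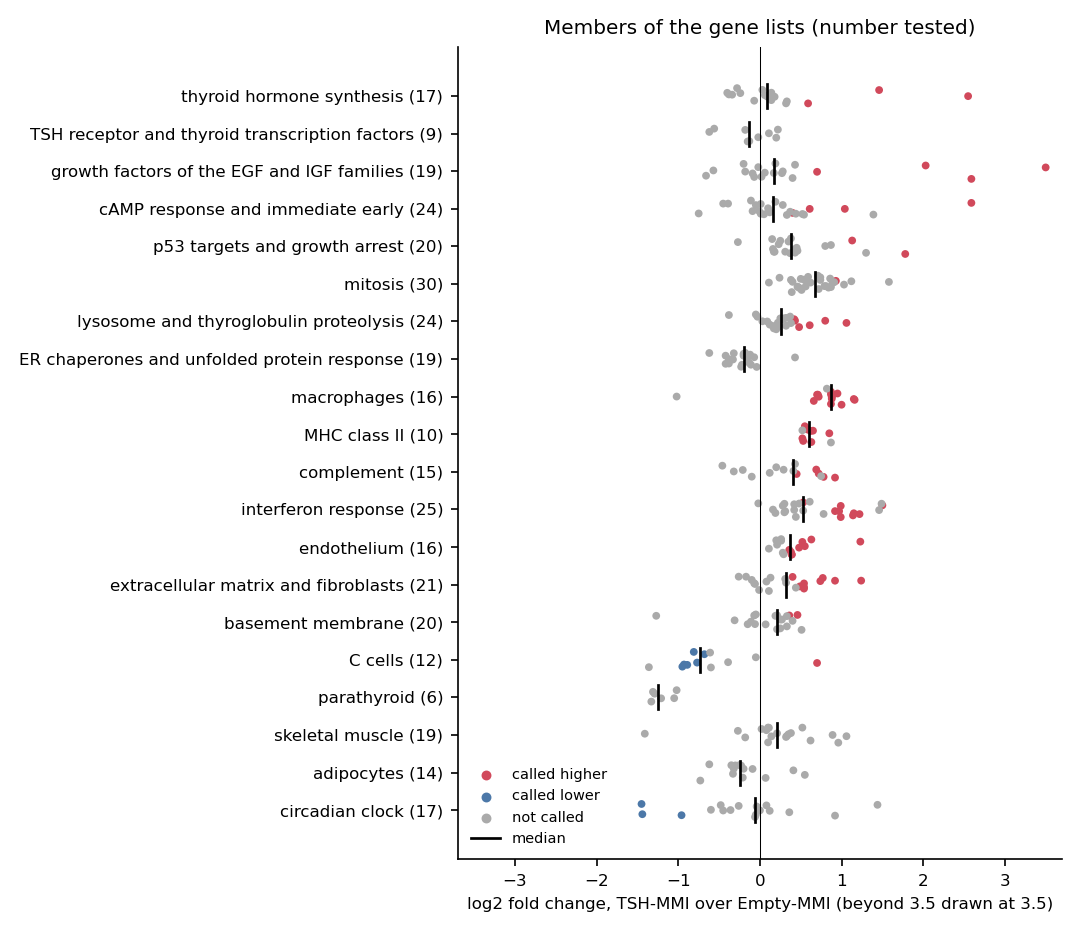
Fitted log2 fold change of TSH-MMI over Empty-MMI (horizontal axis) for each tested member of 20 gene lists (number tested in brackets), red where called higher, blue where called lower and grey where not called, with a black bar at the list's median. Vertical scatter within a list only separates points, and values beyond 3.5 are drawn at 3.5. Macrophage and MHC class II genes lie to the right of 0 with 1 exception, and C cell and parathyroid genes to the left, with Scg5 the exception.

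C cells lie between or beside the follicles and produce calcitonin, and their markers fell in part. Of 12 tested markers 6 fell and 1 rose (50% lower, against 1.21% of all genes tested), and the median log2FC was -0.73. Pcsk2 and Pcsk1, the convertases that process prohormones, had 130, 142 and 138 CPM in Empty-MMI against 71.9, 79.5 and 68.9 in TSH-MMI, and 48.4, 45 and 41 against 24.4, 22.5 and 23.6. They fell with log2FC of -0.89 (SE 0.12, edgeR adjusted p = 0.00145) and -0.93 (SE 0.14, edgeR adjusted p = 0.00255), with no overlap. Scg3 and Scg2, granins of secretory granules, fell with log2FC of -0.95 and -0.77. Scg5, a chaperone of Pcsk2, was the member that rose (log2FC 0.7, SE 0.12, edgeR adjusted p = 0.00462). Calca, which encodes calcitonin, the hormone of these cells, had 418, 626 and 792 CPM against 418, 445 and 337. It did not pass (log2FC -0.61, SE 0.19, edgeR adjusted p = 0.107), although DESeq2 called it lower (adjusted p = 0.0195). The counts of C cell markers stayed within 4 and 7 lower and 1 higher at each alternative setting. Fewer C cells per library, less RNA per C cell and a larger share of RNA from other cells cannot be told apart.

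Parathyroid glands lie against the thyroid, and their transcripts varied between libraries. All 6 parathyroid markers had a negative log2FC (median -1.25) and 0 were called by edgeR or DESeq2, and 0 had an unadjusted p under 0.05. Pth, which encodes parathyroid hormone, had 2315, 4380 and 5314 CPM in Empty-MMI and 1754, 1215 and 2206 in TSH-MMI. The groups did not overlap, but the SE of its log2FC of -1.21 was 1.97 (edgeR adjusted p = 0.821). The summed parathyroid level was 2718 to 6076 CPM in Empty-MMI and 1389 to 2544 in TSH-MMI, so it was lower in the same libraries as the C cell markers, which summed to 7193 to 13590 CPM and 3753 to 5266. Most of the C cell sum came from markers other than Calca, Pcsk1 and Pcsk2, so it is no measure of those genes. Within each group the libraries ranked alike by the C cell and parathyroid sums, while Pcsk2 and Pcsk1 did not follow that order. The part of parathyroid tissue in the C cell result was not tested. Skeletal muscle markers had 0 of 19 called, and summed to 112 to 384 CPM in Empty-MMI and 55.1 to 628 in TSH-MMI, with TSH-MMI replicate 1 lowest and replicate 3 highest. With the mean log2 CPM of these markers as a covariate, 458 genes were higher and 179 lower. Adipocyte markers had 0 of 14 called and summed to 1099 to 1200 CPM and 646 to 1122. Erythrocyte markers (0 of 6), thymocyte markers (0 of 3, with Ptcra at 0 counts in all 6 libraries), nerve and Schwann cell markers (0 of 10), and airway and oesophagus markers (0 of 10) were not called by edgeR. At an unadjusted p under 0.05, these 6 marker lists, from skeletal muscle on, had 0, 3, 0, 1, 2 and 2 members in the order given. DESeq2 called 2 adipocyte and 2 airway markers lower and 0 of the other 4 lists. By edgeR, 1 adipocyte marker was lower with only the compared groups in the fit, 1 airway marker was lower without Empty-MMI replicate 3, and 1 nerve marker was higher without TSH-MMI replicate 3.

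**Figure D4:**
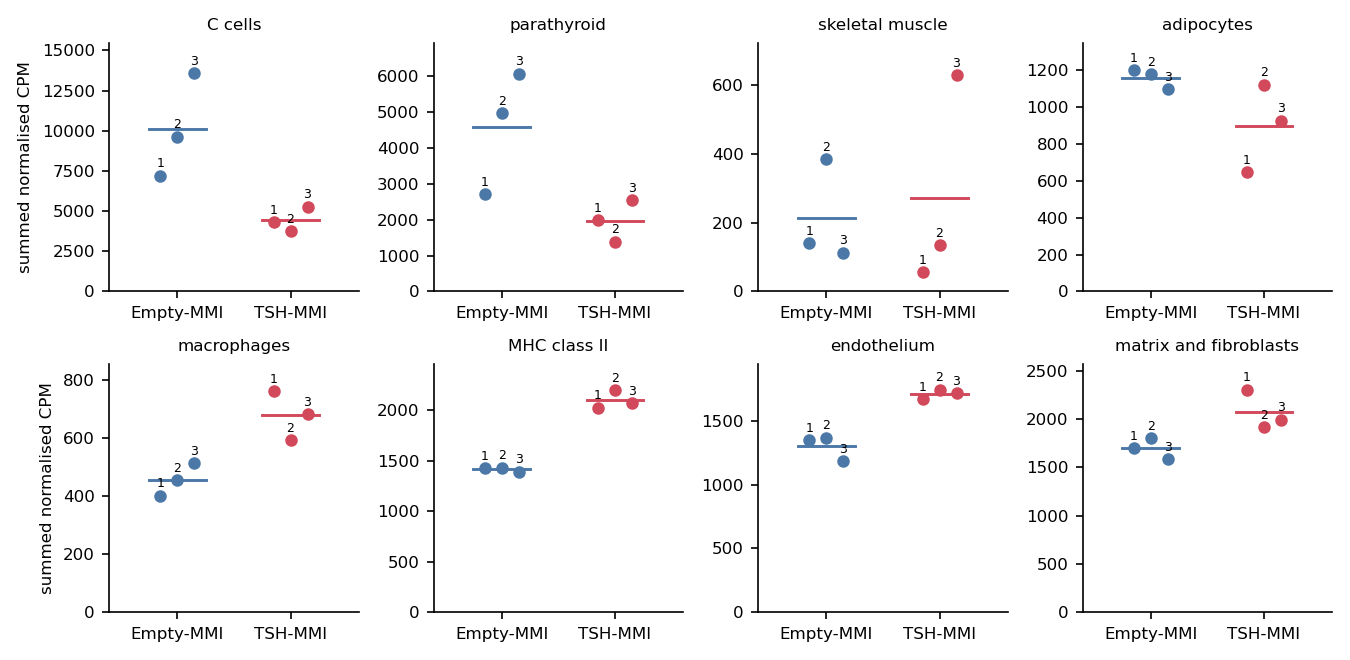
Summed normalised CPM of 8 marker lists (vertical axes from 0) in the 3 Empty-MMI libraries (blue) and the 3 TSH-MMI libraries (red), with replicate numbers beside the points and bars at the group means. C cell and parathyroid sums are lower, and macrophage, MHC class II, endothelial and matrix sums higher, in each TSH-MMI library, while muscle and adipocyte sums overlap. Calca, Pcsk1 and Pcsk2 make up a small part of the C cell sums.

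Of 30 mitosis genes 1, the kinesin Kif4, rose (3.33%, near the 3.03% of all genes tested). All 30 had a positive log2FC (median 0.67), and 16 were higher at an unadjusted p under 0.05, against 1760 of the 17355 genes tested. Kif4 had 1.83, 2.61 and 3.73 CPM in Empty-MMI and 5.53, 4.59 and 5.43 in TSH-MMI (log2FC 0.93, SE 0.22, edgeR adjusted p = 0.0275). Cdk1, the kinase that drives entry into mitosis, had 2.02, 1.34 and 3.68 CPM against 5.03, 4.02 and 4.19 and did not pass (log2FC 0.91, SE 0.28, edgeR adjusted p = 0.0955). Its groups did not overlap. The list's count depended on single libraries: it was 0 without Empty-MMI replicate 1, Empty-MMI replicate 2, TSH-MMI replicate 1 or TSH-MMI replicate 3, 5 without Empty-MMI replicate 3 and 4 without TSH-MMI replicate 2. DESeq2 called 5. Of 30 genes of G1/S and DNA replication 1 rose, Ccnd1, the cyclin of G1 that growth signals induce, with 122, 100.2 and 153 CPM against 236, 175 and 158 (log2FC 0.6, SE 0.15, edgeR adjusted p = 0.0451). The call ended without Empty-MMI replicate 1 (adjusted p = 0.144), Empty-MMI replicate 2 (0.17), TSH-MMI replicate 1 (0.214) or TSH-MMI replicate 2 (0.0681). The median of this list was 0.02.

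Of 20 p53 targets 2 rose, Gdf15 and Cdkn1a, and 0 fell, and the median log2FC was 0.38. This is 10% of the list, against 3.03% of all genes tested, and at an unadjusted p under 0.05 10 were higher, against 1760 of the 17355 genes tested. Cdkn1a, the inhibitor p21 of cyclin-dependent kinases, had 59.3, 41.4 and 85.4 CPM against 160, 137 and 109 (log2FC 1.13, SE 0.27, edgeR adjusted p = 0.0458). Its call ended at 9 settings, with adjusted p up to 0.162. The list's count was 1 without Empty-MMI replicate 1, Empty-MMI replicate 2 or TSH-MMI replicate 1 and 4 without Empty-MMI replicate 3, and DESeq2 called 7. Of 24 antioxidant genes 4 rose (16.7%) and 1 fell (4.17%, against 1.21% of all genes tested). Sod3, the extracellular superoxide dismutase, had 234, 161 and 180 CPM in Empty-MMI and 475, 434 and 332 in TSH-MMI (log2FC 1.11, SE 0.15, edgeR adjusted p = 0.00161), with no overlap. Nqo1 and Gclm, which the factor NRF2 induces, had log2FC of 0.77 and 0.41, and Gpx2, a glutathione peroxidase, 0.7. Gsta4, a glutathione transferase, fell, with 27.4, 26.8 and 28.3 CPM against 19.9, 20 and 18.2 (log2FC -0.51, SE 0.1, edgeR adjusted p = 0.0108). Without Empty-MMI replicate 1, Empty-MMI replicate 2, TSH-MMI replicate 1 or TSH-MMI replicate 2, 1 of the list rose. In the integrated stress response 2 of 20 rose (10%) and 1 fell (5%). Atf3, a stress-induced transcription factor, had 1.16, 1.03 and 1.19 CPM against 4.94, 3.99 and 4.01 (log2FC 1.93, SE 0.26, edgeR adjusted p = 0.0017). Trib3 rose by a log2FC of 0.63 and Slc7a5, a transporter of large neutral amino acids, fell by 0.81 on the log2 scale. Leaving out any 1 of the 6 libraries ended the call of Trib3 (adjusted p from 0.0638 to 0.161), and leaving out Empty-MMI replicate 1, Empty-MMI replicate 3 or TSH-MMI replicate 1 that of Slc7a5 (0.053 to 0.0874).

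Clock genes moved in both directions, and the few that passed fell. Of 17 tested genes 3 fell and 0 rose (17.6% lower, against 1.21% of all genes tested), with a median log2FC of -0.06 and a range of -1.45 to 1.44. At an unadjusted p under 0.05, 7 were lower and 3 higher. DESeq2, both limma fits and edgeR without Empty-MMI replicate 3 also called members higher, at most 3. Over all alternative settings, 2 to 4 were called lower. Hlf, an output factor of the clock, had 11.7, 15.3 and 15.6 CPM in Empty-MMI and 3.92, 4.11 and 7.41 in TSH-MMI (log2FC -1.45, SE 0.23, edgeR adjusted p = 0.00443). Cry1, a repressor in the core loop, had 16.8, 17.8 and 17.9 CPM against 8.5, 9.97 and 8.51 (log2FC -0.96, SE 0.21, edgeR adjusted p = 0.0197). Neither gene's groups overlapped. Cry1 was no longer called without Empty-MMI replicate 1, Empty-MMI replicate 2, Empty-MMI replicate 3, TSH-MMI replicate 1 or TSH-MMI replicate 3 (adjusted p from 0.0524 to 0.106), while Hlf was called at each setting. Nr1d2, the repressor REV-ERB beta, had 10.1, 13.9 and 22.1 CPM against 26, 26.1 and 35.3, without overlap, and did not pass (log2FC 0.92, SE 0.26, edgeR adjusted p = 0.0812). It passed as higher at 4 alternative settings. The labels give no time of day for the collection of tissue, so its part was not tested.

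Further single genes stood out in lists that otherwise held few calls. Of 12 genes that thyroid hormone regulates in other tissues 2 rose (16.7%, against 3.03% of all genes tested). They were Hr, a corepressor of the hormone's receptor (log2FC 0.67), and the potassium channel Kcnj10 (log2FC 1.08). Leaving out Empty-MMI replicate 1, Empty-MMI replicate 3, TSH-MMI replicate 1 or TSH-MMI replicate 3 ended the call of Kcnj10, and leaving out Empty-MMI replicate 2 or TSH-MMI replicate 2 that of Hr. In TGF-beta and activin signalling 3 of 20 rose (15%). Fst, follistatin, which binds activin, had 1.85, 3.21 and 1.93 CPM against 6.24, 5.72 and 6.41 (log2FC 1.39, SE 0.22, edgeR adjusted p = 0.00368), and Ltbp2 and Ltbp4, latent TGF-beta binding proteins, had log2FC of 0.66 and 0.45. DESeq2 called 6 of this list higher. In sterol and fatty acid synthesis 2 of 19 rose (10.5%). Hmgcs1, an early enzyme of cholesterol synthesis, had 34.3, 34.1 and 35.4 CPM against 58, 52.7 and 43.7 (log2FC 0.57, SE 0.1, edgeR adjusted p = 0.00523). The list's count was 1 without Empty-MMI replicate 2, TSH-MMI replicate 1 or TSH-MMI replicate 2 and 6 without TSH-MMI replicate 3. Cp, ceruloplasmin, rose from 155, 131 and 142 CPM to 258, 246 and 279 (log2FC 0.87, SE 0.12, edgeR adjusted p = 0.00161), and Lcn2, lipocalin, rose with a log2FC of 1.37. Ephx1, the epoxide hydrolase, had 174, 142 and 163 CPM against 295, 277 and 234 (log2FC 0.75, SE 0.12, edgeR adjusted p = 0.00421). Car15, a carbonic anhydrase, had 3.95, 1.05 and 1.19 CPM against 31.4, 9.4 and 17.8, without overlap, and did not pass (log2FC 3.26, SE 0.77, edgeR adjusted p = 0.0544), while DESeq2 called it (adjusted p = 0.000378). Nuclear genes of the respiratory chain (20 tested, median -0.05), glycolysis and hypoxia genes (20 tested, median 0.02) and selenoproteins (16 tested, median 0.04) had 0 called by edgeR, and 1, 2 and 3 members at an unadjusted p under 0.05. DESeq2 called 0, 1 and 1, and edgeR without TSH-MMI replicate 3 called 1 glycolysis and hypoxia gene.

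The last comparison asked whether the vector's effect depended on the drug. TSH against Empty, which shares no library with TSH-MMI against Empty-MMI, had 1478 genes higher (8.52%) and 974 lower (5.61%). Of the 736 genes called under MMI, 710 had the same sign without it and 554 were called in the same direction, which is 75.3% of the calls under MMI and 22.6% of those without it. Another 2 were called in opposite directions. Of the 15 highest genes 14 also rose without the drug, Areg being the exception, and of the 15 lowest 14 also fell, Slc24a2 being the exception. Slc34a2 had a log2FC of 4.16 without the drug and 3.04 with it, Slc26a4 of 3.31 and 2.55, and Agr2 of -2.25 and -1.82.

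**Figure D5:**
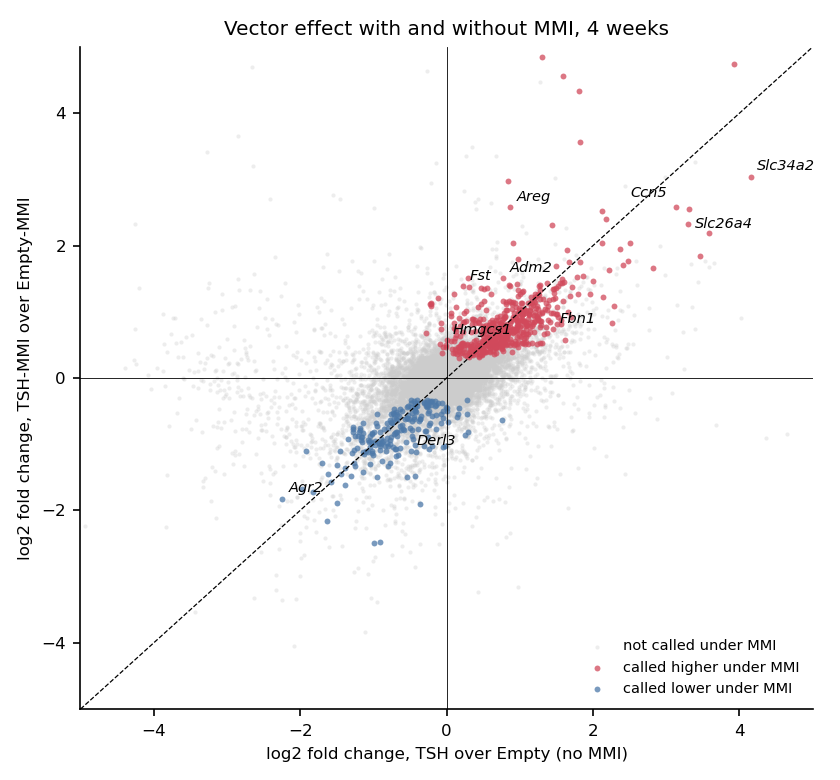
Fitted log2 fold change of TSH-MMI over Empty-MMI (vertical axis) against that of TSH over Empty (horizontal axis), 1 point per gene tested, red where called higher and blue where called lower under MMI. The dashed line marks equal effects, and 87 genes beyond 5 on either axis are not drawn. Slc34a2, Slc26a4 and Fbn1 lie below the line, and Areg, Adm2 and Fst above it.

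The difference of the effects, tested in the same fit, passed for 0 genes by edgeR (smallest adjusted p = 0.108). Without adjustment, 1754 genes (10.1%) had a p under 0.05. By DESeq2 there were 69 genes with a more positive effect under MMI and 102 with a more negative one, and limma on log2(FPKM + 1) called 2 and 0. Without Empty replicate 2 edgeR called 10 and 0, and without Empty-MMI replicate 3 it called 0 and 1. A miss of the threshold does not show that the effects were alike. Of the 30 leading genes 5 had an unadjusted p under 0.05 for the difference, and Derl3 had the smallest of these, with a log2FC of -0.49 without the drug and -1.11 with it (difference -0.62, unadjusted p = 0.00385, edgeR adjusted p = 0.304). Adm2 had log2FC of 0.77 and 1.51, Tmem100 of 0.86 and 1.41, and Fst of 0.23 and 1.39 (difference 1.16, edgeR adjusted p = 0.253). Hmgcs1 had 0 on the log2 scale without the drug and 0.57 with it (difference 0.57, edgeR adjusted p = 0.23). Of the 9 receptor and transcription factor genes 5 had an unadjusted p under 0.05 for the difference. Tshr, Glis3 and Creb3l1 were more negative under MMI, and Foxe1 and Hhex more positive. Of the 17 synthesis genes 2 had such a p. Tg, 1 of them, had log2FC of 0.53 without the drug and -0.28 with it (difference -0.81, edgeR unadjusted p = 0.00744, adjusted p = 0.362).

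Calls were more frequent without the drug over all genes tested (8.52% higher, against 3.03% with it), and the counts by list are read beside these shares. Of 30 mitosis genes 25 rose without MMI and 1 with it, and the median log2FC was 1.67 and 0.67. In this list 15 genes had an unadjusted p under 0.05 for the difference and 0 passed, and the median difference was -0.93. With the empty vector, mean Kif4 was 1.43 CPM without the drug and 2.72 with it, and mean Cdk1 1.08 and 2.35. With the TSH vector, mean Kif4 was 4.12 CPM without the drug and 5.19 with it, and mean Cdk1 3.49 and 4.41. For these genes the smaller log2FC under MMI went with a higher Empty-MMI level, not a lower TSH-MMI level. The cause was not tested. Of 20 basement membrane genes 14 and 2 rose (medians 0.65 and 0.21), and of 21 matrix genes 16 and 9 (medians 0.81 and 0.32). Fbn1 had a log2FC of 1.46 without the drug and 0.74 with it (difference -0.72, unadjusted p = 0.00176, edgeR adjusted p = 0.253), and Col4a1 of 0.98 and 0.46 (difference -0.52, edgeR adjusted p = 0.263). For macrophage markers the counts were 14 and 14 of 16, and for MHC class II 8 and 8 of 10. Interferon genes had 18 and 9 of 25 (medians 0.9 and 0.53), endothelial markers 14 and 9 of 16, and C cell markers 8 and 6 lower of 12. Skeletal muscle markers moved with the comparison without the drug, with a median log2FC of -3.22 and 3 of 19 lower, against 0.21 and 0 with it. With the mean log2 CPM of these markers as a covariate, the difference passed for 0 genes, with 1685 at an unadjusted p under 0.05 and a smallest adjusted p of 0.36 by edgeR. Differences in counts between the comparisons were not tested beyond the gene-wise test above.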

How the data were processed

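Thyroid RNA was sequenced from TruSeq stranded mRNA libraries, per the labels' protocols. The authors deposited, per the file headers, read counts, FPKM and TPM for each gene and library. Counts were the values tested, deposited FPKM served 1 alternative, and deposited TPM and the table of 1 week were not used here. Tools named in the submitters' processing notes were StringTie 2.1.3b, HISAT2 2.1.0, FastQC 0.11.7 and Trimmomatic 0.38, with the build mm10. The sources used here give no annotation, strand setting or counting step, so reads of overlapping genes may be shared. Gene positions are on GRCm38 and were matched by gene identifier, and every per-sample column was mapped to a sample (0 left unmapped).

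The 12 libraries of 4 weeks, 3 per group, were fitted together with edgeR 4.0.16 in R 4.3.3 (filterByExpr, TMM scaling, quasi-likelihood test), giving a common biological coefficient of variation of 0.184. TSH-MMI was contrasted with Empty-MMI, TSH with Empty, and the difference of these contrasts was tested, at an adjusted p under 0.05. Standard errors are the fitted log2 fold change divided by the square root of the F statistic. Alternatives were DESeq2 1.42.0, limma 3.58.1 on log2(FPKM + 1) and log2(FPKM + 0.1), RLE scaling, scaling without Tg, mitochondrial and ribosomal RNA genes, no filter on low counts, a replicate block, a muscle covariate, a fit of the 6 compared libraries, and leaving out each library in turn. The edgeR contrast of TSH-MMI with Empty-MMI, the edgeR difference, DESeq2 and limma were tried on simulated counts, limma there on CPM and not FPKM. The remaining steps were not tried on simulated counts. Counts of replicate pairs differed well beyond sampling noise (chi-square over its degrees of freedom at least 17.5), so none was treated as a repeat.

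Genes were named by this rule: each tested gene of both thyroid lists with Cga and Tshb, then, among called genes of at least 5 CPM without overlap of libraries, the 15 with the highest and the 15 with the lowest log2 fold change, leaving out predicted genes, pseudogenes and antigen receptor genes, and up to 4 members per described list with the smallest p. Scg5, Cd55, Gpx2, Oas1a, Calca and Pth fall outside this rule and were chosen after their values were seen. The 48 lists hold 812 symbols, of which 809 are in the table. The comparison, its lists and its genes were chosen with earlier results of these data known. Some genes that the rule names are not reported here.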

Additional observations from a re-analysis of the deposited data

How the results depend on the processing

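The direction of every called gene named here was the same at each setting run. Of 107 such genes 66 passed the threshold at each setting and 41 missed it at 1 or more, and 9 of 29 named genes not called passed at some setting. The counts of 526 genes higher and 210 lower became 815 and 405 with DESeq2, 761 and 111 with limma on log2(FPKM + 1), and 746 and 110 on log2(FPKM + 0.1). The limma fits also moved the median log2FC of TSH-MMI over Empty-MMI over all genes from -0.01 to 0.06 and 0.095. They moved the median of the difference of effects from 0.01 to 0.134 and 0.208, so changes in both are relative to these shifts. RLE scaling gave 528 and 205, scaling without Tg, mitochondrial and ribosomal RNA genes 535 and 203, no filter 499 and 169, and the 6 compared libraries alone 464 and 215. Leaving out 1 library gave 199 to 440 higher and 56 to 185 lower, the fewest without TSH-MMI replicate 1. For the difference of effects, with 0 and 0 by edgeR, DESeq2 called 69 and 102, limma 2 and 5 higher at its pseudocounts and 0 lower, and leaving out 1 library gave 0 to 10 higher and 0 to 1 lower. The cause of these changes was not tested.

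The labels do not say that replicate numbers pair the samples. The deviations of same-numbered libraries correlated at 0.0271, 0.00265 and -0.132 across genes, and those of unlike-numbered libraries at -0.237 to 0.244. With 3 libraries per group, these values cannot decide whether the samples were paired. With the replicate block, 460 genes were higher and 170 lower.

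Among genes called above, leaving out 1 library raised the adjusted p of the following past the threshold, given with its highest value: Adamts2 to 0.131, Agrn to 0.157, B2m to 0.0854, C3ar1 to 0.112, Cd55 to 0.125, Ciita to 0.0627, Col3a1 to 0.0562, Col4a1 to 0.0967, Emcn to 0.0585, Gclm to 0.195, Gpx2 to 0.218, H2-D1 to 0.124, Hpgd to 0.179, Lcn2 to 0.0588, Ltbp4 to 0.0912, Mmp2 to 0.164, Nqo1 to 0.113, Ptgs2 to 0.113, Ramp3 to 0.0978, Serping1 to 0.122, Tcirg1 to 0.126. Genes not called changed sign as follows. Tshr had a log2FC of 0.00729 without Empty-MMI replicate 2, in a range of -0.339 to 0.00729 over the leave-outs. Pax8 had 0.0955 and 0.0962 with limma, and 0.0387, 0.0186 and 0.000479 without Empty-MMI replicate 1, TSH-MMI replicate 1 and TSH-MMI replicate 2, with -0.0731 the lowest leave-out. Duox1 had -0.0709 and -0.0651 without Empty-MMI replicate 2 and TSH-MMI replicate 2, and up to 0.416. Duoxa1 had -0.0268 with the muscle covariate, and -0.229, -0.054 and -0.0889 without Empty-MMI replicate 2, TSH-MMI replicate 1 and TSH-MMI replicate 2, and up to 0.315. Duoxa2 had -0.00648 and -0.0599 without Empty-MMI replicate 3 and TSH-MMI replicate 2, and up to 0.159. Crebrf had 0.0327 and 0.0447 with limma and 0.207 without Empty-MMI replicate 3, in a range down to -0.352. With 3 libraries per group, the depth limits what can be called for genes of low level.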
